A study of Harpegnathos saltator with 27 samples.

Results

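The genes described here are 121 of the 20659 gene identifiers counted in the ant Harpegnathos saltator. In brain, all 121 were lower in every library of ants injected with 20-hydroxyecdysone (20E) than in every solvent library and every library of ants given a juvenile hormone analog. They were chosen by the values of these brain libraries and of the solvent and 20E libraries of fat body, so those values describe the choice and are not tested. Levels are in CPM, a gene's count scaled so that all gene counts of a library add to the same total, and a ratio is the mean of the solvent group over the mean of the 20E group, with 0.5 CPM added to each mean. The choice asked for a brain ratio of at least 1.5, a brain solvent mean of at least 2 CPM, overlap between the analog and solvent libraries in brain, and a ratio under 1.5 in fat body. Of 524 identifiers with no brain 20E library as high as any other brain library, 232 had the brain ratio, 206 of these also had the level, 175 had the overlap, and 121 had the lower ratio in fat body. The 54 others of the 175 had a fat body ratio of at least 1.5.

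Worker ants received an abdominal injection of 500 ng 20E, of 500 ng methoprene (the analog, labelled JHA), or of about 1 µL of 10% ethanol (EtOH), with Hank's balanced salt solution as the diluent of all injections. No other allele or agent is labelled, and the labels give no age for the ants. At 12 hours after injection the ovary, the brain without its visual part and the abdominal fat body were collected, and each of the 9 combinations has 3 libraries. The tissues are stated to come from 3 individuals and the labels do not say which libraries share an ant, so the ovary libraries may come from the ants whose brains chose the genes.

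Ecdysteroids act through a nuclear receptor made of the ecdysone receptor and ultraspiracle. The receptor switches on early genes that encode transcription factors, and these in turn switch later genes on or off. Juvenile hormone acts through its receptor Methoprene-tolerant, and in larvae it keeps ecdysteroids from starting metamorphosis. In adult social insects both hormones are known for their part in reproduction and in the behaviour that goes with caste, and Harpegnathos workers can become reproductive as adults. The fat body stores nutrients and makes yolk protein precursors. The files pair no identifier with a gene name, and 0 of the identifiers matched the reference list of 14329 genes for the species. No function or sequence can therefore be given for any of the 121 genes, and neither tissue markers nor known hormone response genes could be checked by name.

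Libraries held 8.74 to 21.6 M (mega) gene counts, and every pair of replicates differed by more than sampling noise. On the first principal component of the brain libraries, EtOH replicate 3 and JHA replicate 1 lay at −42.0 and −47.7, with 20E replicates 2 and 3 at 34.3 and 33.4 and the other 5 between −0.5 and 12.1. In ovary, JHA replicate 1 lay at 83.8 and 20E replicate 3 at 25.5, with the other 7 between −32.7 and 4.1. As a stand-in for named markers, genes with a solvent mean of at least 20 CPM and at least 20-fold above both other tissues were summed for each tissue. In brain libraries the 518 brain-enriched genes took 11.3 to 13.8% of counts with EtOH, 11.4 to 12.4% with 20E and 10.2 to 13.6% with JHA. The fat-body-enriched genes took 0.357 to 0.692%, 0.301 to 0.587% and 0.222 to 0.736% of the brain counts. Neither share separated the 20E brain libraries from the others. A sum over so many genes can miss a change in 1 type of cell, so the cell make-up of the brain libraries was not tested.

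In brain, the genes were lower with 20E by a ratio of 1.5 to 3.19, with a median of 1.82. The ratio was at least 2 for 37 genes and at least 3 for 3. Their solvent means ran from 2.14 to 3754 CPM with a median of 25.2, and 78 genes had at least 10 CPM, 36 at least 100 and 3 at least 1000. Together they took 1.48 to 1.67% of the gene counts of a solvent brain library, 1.48 to 1.59% with JHA, and 1.08%, 0.731% and 0.754% in 20E replicates 1, 2 and 3. All of these brain values restate the choice of the genes, and the libraries are those that made it. In bulk tissue, fewer cells of a type and less RNA per cell cannot be told apart.

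The 3 20E brain libraries were not equally low. The median over the genes of log2 of CPM over the solvent mean was −0.68 in replicate 1, −1.05 in replicate 2 and −0.89 in replicate 3. Replicate 1 was the highest 20E library for 80 of the 121 genes, replicate 2 for 12 and replicate 3 for 29. For 24 genes replicate 1 lay over 1.5 times above both other 20E libraries, and for 4 it lay below both by the same factor. The gap between the groups was often small: the lowest solvent library was a median of 1.29 times the highest 20E library, under 1.1 times for 19 genes and at least 1.5 times for 31. For 18 genes both the lowest solvent and the lowest JHA library were at least 1.5 times the highest 20E library.

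**Figure D1:**
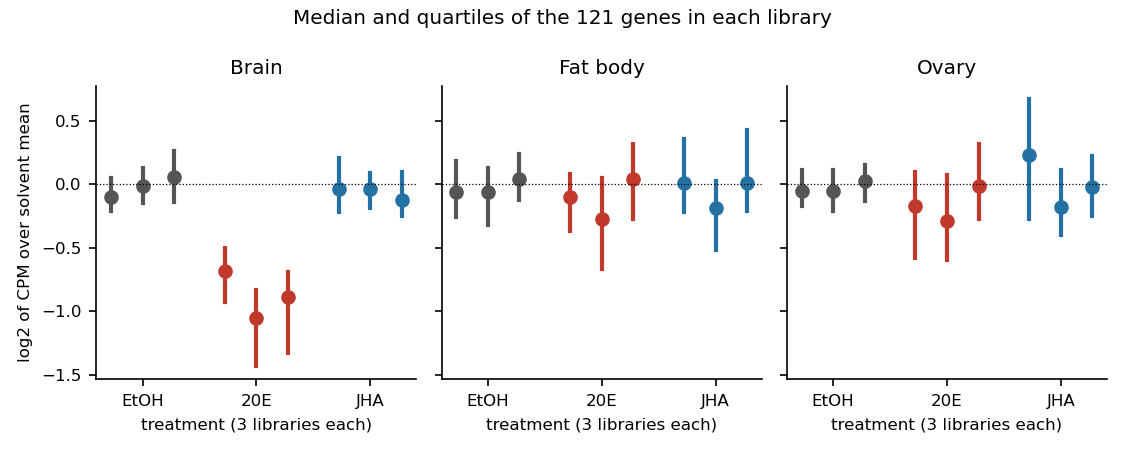
Each point is the median, and each bar the quartile range, over the 121 genes of log2 of CPM over the gene's solvent mean in that tissue, for 1 library (EtOH grey, 20E red, JHA blue). The brain 20E medians of −0.68 to −1.05 restate the choice of genes, and the fat body and ovary medians lie between −0.29 and 0.23.

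HSALG013510.2 had the widest brain ratio, 3.19. Its CPM was 18.3, 25.3 and 24.1 with EtOH (22.5 ± 3.76, mean ± SD, n = 3), 11.9, 4.54 and 3.77 with 20E (6.73 ± 4.48) and 22.7, 18.4 and 17.3 with JHA (19.5 ± 2.85). The EtOH and JHA libraries overlap in part, and 20E replicate 1 stood well above the other 20E libraries. HSALG014136.2 followed with a ratio of 3.10 at a low level: 3.31, 1.72 and 1.97 CPM with EtOH, 0.868, 0.202 and 0.175 with 20E, and 2.77, 2.53 and 1.60 with JHA. In fat body this gene was at 26.8 CPM in 20E replicate 1 and at no more than 0.761 in the other 5 EtOH and 20E libraries. That library alone sets its fat body ratio of 0.116.

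HSALG001307.1 had the highest CPM of the genes in solvent brain (a value not scaled to gene length), with 3132, 3485 and 4646 CPM (3754 ± 792). It had 2973, 1900 and 2058 CPM with 20E (2310 ± 579) and 4329, 3895 and 3539 with JHA (3921 ± 396). The highest 20E library lay just under the lowest solvent library, so the groups are barely apart. HSALG012071.1 had the next highest CPM, with 1269, 1250 and 1356 CPM with EtOH (1292 ± 56.5), 868, 725 and 534 with 20E (709 ± 167) and 931, 1371 and 1132 with JHA (1145 ± 220). Its JHA replicate 1 lay closer to the highest 20E library than to the solvent libraries.

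The brain genes with the smallest p in the fit were HSALG007490.1 and HSALG006513.2. HSALG007490.1 had 30.3, 29.7 and 27.4 CPM with EtOH (29.1 ± 1.52), 15.1, 11.9 and 15.2 with 20E (14.1 ± 1.88) and 23.7, 27.6 and 26.3 with JHA (25.9 ± 2.02). Its 20E libraries lie close together and far below the solvent libraries, with a fitted log2 fold change of −1.04 (SE 0.16). HSALG006513.2 had 155, 158 and 218 CPM with EtOH (177 ± 35.3), 82.9, 59.4 and 61.5 with 20E (68.0 ± 13.0) and 152, 168 and 99.4 with JHA (140 ± 36.0), a log2 fold change of −1.36 (SE 0.21). This gene also had the fat body ratio nearest below the limit of 1.5, with 53.8 ± 1.66 CPM with EtOH and 35.7 ± 11.1 with 20E there.

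**Figure D2:**
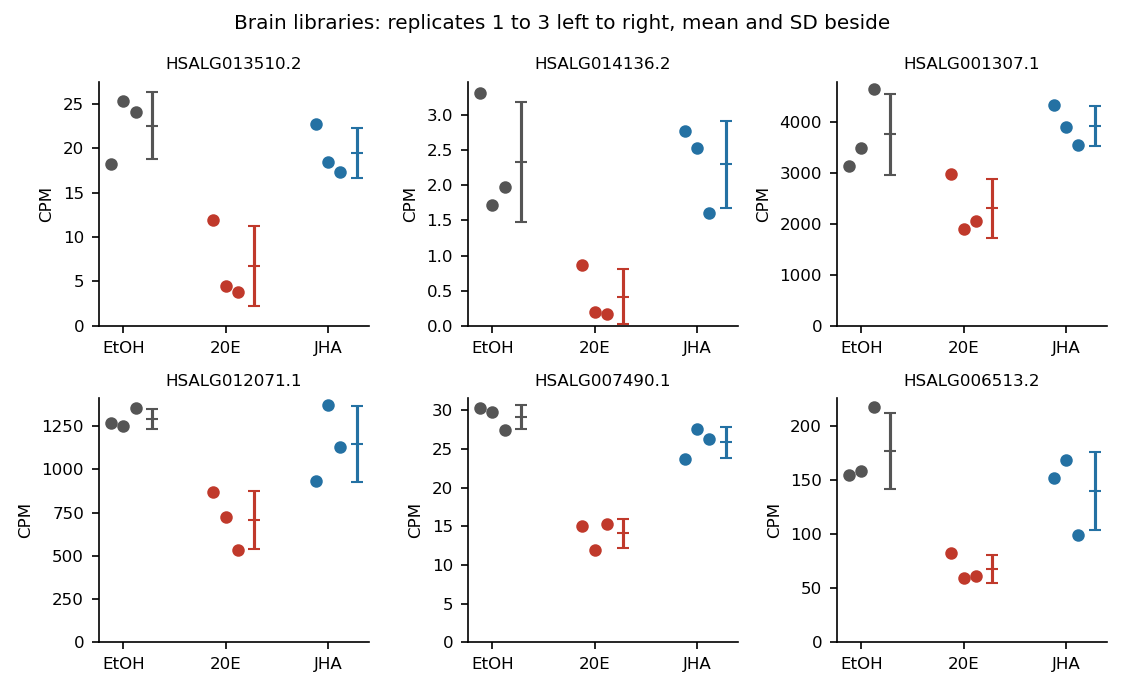
CPM in the 9 brain libraries for the 2 genes with the widest ratio, the 2 with the highest solvent mean and the 2 with the smallest p for 20E against EtOH, with replicates from left to right and the mean and SD beside them. Every 20E point lies below every other point of its gene, as the choice required, by a wide gap in HSALG007490.1 and a narrow one in HSALG001307.1.

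In edgeR's quasi-likelihood test over all brain genes, 31 of the 121 were called lower with 20E than with EtOH at a Benjamini-Hochberg adjusted p under 0.05, where 0.517% of the 12379 tested genes were. Against JHA, 33 of 121 were called lower with 20E, where 0.67% of all were. Both counts use the contrast that chose the genes and carry no weight of their own. Leaving out 1 library changed both counts, in fits that also held fewer libraries. The first was 52 without 20E replicate 1, 0 without 20E replicate 3, 1 without 20E replicate 2 and 2, 1 and 11 without EtOH replicates 1, 2 and 3. The second was 59 without 20E replicate 1, 2 without either 20E replicate 2 or 3, and 18, 10 and 5 without JHA replicates 1, 2 and 3. The shares of all genes called in these fits are not given, so the changes cannot be read as particular to these genes. Between JHA and EtOH in brain 0 of 121 were called by edgeR, by DESeq2 and by limma voom, where edgeR called 0% of all genes, DESeq2 0.239% of the genes it gave an adjusted p and limma voom 0.267% of all. Of the 121, 1 had an unadjusted p under 0.05, as did 398 of all 12379. The choice required these 2 groups to overlap. The JHA mean over the EtOH mean, with 0.5 CPM added to each, ran from 0.711 to 1.55 with a median of 0.973. HSALG002278.2 was highest by that measure, with 57.5, 51.7 and 34.7 CPM with JHA and 26.7, 38.3 and 27.3 with EtOH, and its groups overlap through JHA replicate 3 and EtOH replicate 2.

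In solvent ants the genes were most often at their highest level in brain. Of the 121 genes, 91 (75.2%) had their highest solvent mean in brain, 19 (15.7%) in ovary and 11 (9.09%) in fat body. Among the 11083 identifiers with the same minimum of 2 CPM in solvent brain, the shares were 51.6%, 40.0% and 8.48%. A level at least 10-fold above both other tissues was held by 32 genes (26.4%, against 11.3% of those identifiers). Under 1 CPM in solvent fat body were 50 genes (41.3% against 21.9%), and under 1 CPM in solvent ovary 30 (24.8% against 10.8%). The fat body limit of the choice touches these shares, since a gene with almost no fat body counts can hardly reach a ratio of 1.5 once 0.5 CPM is added. Leaving out genes under a fat body solvent mean of 1 CPM left 71 genes.

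By tissue of highest solvent level, the brain ratio, which the choice cut at 1.5 for every gene, is given as a description. The 32 brain-restricted genes had a median brain ratio of 1.86 (1.52 to 3.19), the other 59 that were highest in brain 1.74 (1.50 to 2.65), the 11 highest in fat body 1.83 (1.64 to 2.47) and the 19 highest in ovary 1.91 (1.51 to 3.10). With the 20E libraries in place of the solvent libraries, the highest level was in brain for 68 genes, in fat body for 22 and in ovary for 31, and the share highest in brain was 56.2%, against 50.1% of the same 11083 identifiers. With the JHA libraries the counts were 89, 12 and 20, and the share was 73.6% against 49.1%. The brain EtOH and JHA libraries are those the choice required to be above the 20E libraries, so the shares in brain carry that choice.

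The extremes show the range. HSALG014355.1 had 19.6, 15.1 and 15.1 CPM in solvent brain and no counts in any solvent library of fat body or ovary, which allows at most 0.236 CPM there (3 counts per library, counting error only). HSALG011442.1 had 88.8, 55.1 and 83.8 CPM in solvent brain and at most 0.203 CPM in a solvent library of the other tissues. At the other end, HSALG003088.2 had 2.24, 2.46 and 1.87 CPM in solvent brain, 21.0, 17.7 and 13.9 in fat body and 70.6, 70.9 and 80.4 in ovary. Its level was lower in brain than in either other tissue, and the brain 20E libraries held 0.868, 0.807 and 0.876 CPM. HSALG001144.1 had a mean of 3.57 ± 0.623 CPM in solvent brain, 24.3 ± 17.3 in fat body and 47.8 ± 15.2 in ovary.

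**Figure D3:**
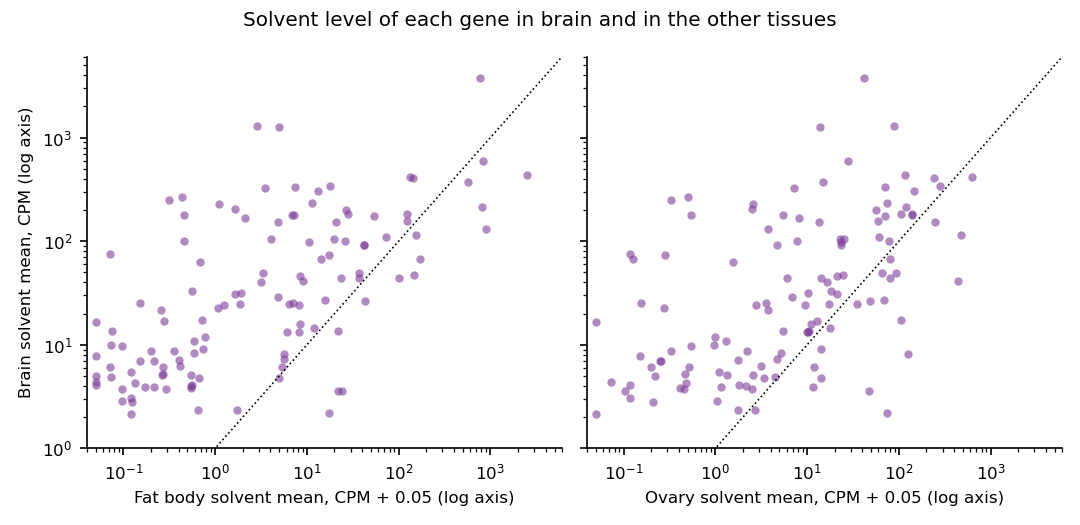
Solvent mean CPM of each of the 121 genes in brain (vertical log axis) against fat body (left) and ovary (right, horizontal log axes with 0.05 CPM added so that genes at 0 can be drawn). Points above the dotted line of equal levels are higher in brain, and 91 genes have their highest solvent mean there.

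In fat body, 54 of the 80 genes that could be tested (67.5%, against 51% of all genes) had a log2 fold change below 0 with 20E. Over the 121, the fat body ratio ran from 0.116 to 1.50 with a median of 1.07, and it was below 1 for 46 genes. A ratio of 0.67 or less, at least 1.5-fold higher with 20E, was held by 11. The other 41 had too few fat body counts to enter the test. The median fitted log2 fold change of the 80 was −0.27, where that of all 9870 tested genes was −0.01, although the ratio limit had removed the genes lowered most. Every 20E library was below every EtOH library for 5 of the 80 (6.25%, against 6.72% of all genes) and above for 3 (3.75% against 10.2%). Called lower were 0 of the 80. The name "lowered in brain but not in fat body" thus holds by the limit of 1.5. Most of the 80 leaned lower in fat body, with a share lower without overlap near that of all genes.

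In fat body 2 of the 80 genes were called between 20E and EtOH, where 1.01% of all genes were called. Both were higher with 20E, where 0.598% of all genes were called higher. The choice had removed genes with a fat body ratio of at least 1.5, which left little room for a call of a lower gene. HSALG001307.1 had 679, 940 and 686 CPM with EtOH (768 ± 148), 4030, 4970 and 3443 with 20E (4148 ± 770) and 3834, 1433 and 2601 with JHA (2623 ± 1201). In fat body its 20E and JHA libraries were all above its solvent libraries, while in brain its 20E libraries were all below, without a call in the brain fit (log2 fold change −0.68, SE 0.21). HSALG007109.2 had 32.8, 24.2 and 23.4 CPM with EtOH (26.8 ± 5.22), 86.8, 205 and 331 with 20E (207 ± 122) and 25.1, 12.5 and 20.0 with JHA (19.2 ± 6.31). In brain it had 194, 202 and 207 CPM with EtOH (201 ± 6.49), 180, 78.6 and 79.4 with 20E (113 ± 58.4) and 229, 216 and 192 with JHA (212 ± 18.9), so that brain 20E replicate 1 was near the solvent level and the other 2 well below it; it was not called in the brain fit either (log2 fold change −0.82, SE 0.29). In the fit over fat body the log2 fold change was 2.36 (SE 0.37) for HSALG001307.1 and 2.86 (SE 0.43) for HSALG007109.2. The call of the first was lost in 5 of 12 alternative fits and that of the second in 7, with 0 called in the fits without fat body 20E replicate 2 or without any 1 of the 3 EtOH libraries.

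The difference of the 20E effect between brain and fat body was fitted over all 27 libraries, and it passed an adjusted p under 0.05 for 2 of the 121 genes, where 0.396% of 13367 genes passed. These were the same HSALG001307.1, with a brain minus fat body difference of −3.04 on the log2 scale (SE 0.48), and HSALG007109.2, with −3.67 (SE 0.68). Both contrasts in this difference were used to choose the genes, so it describes them and is no independent test. The other 119 were thus not shown to respond differently in the 2 tissues. Of the 121, 26 had an unadjusted p under 0.05, these 2 included, as did 1110 of all 13367.

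**Figure D4:**
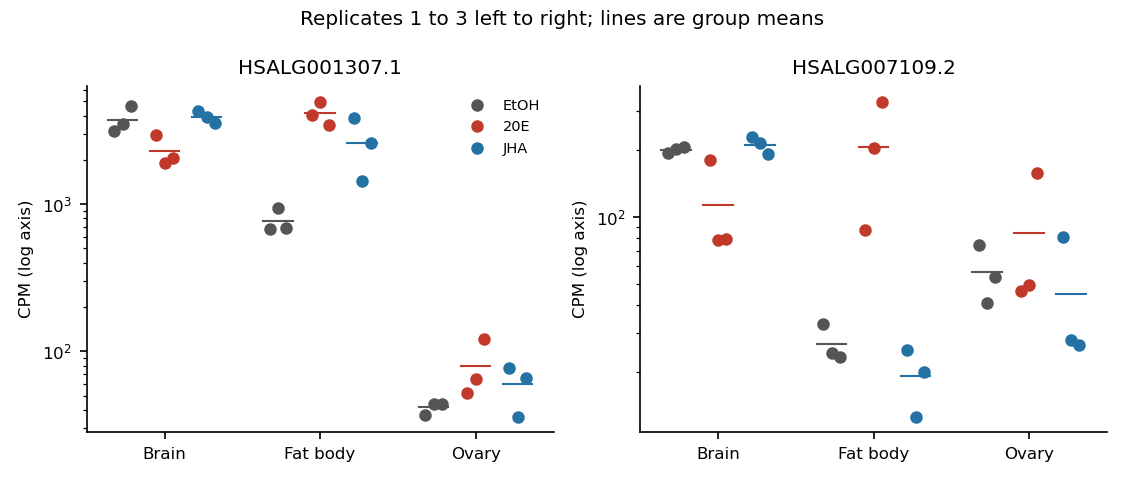
CPM on a log axis of HSALG001307.1 (left) and HSALG007109.2 (right) in all 27 libraries, by tissue and treatment (EtOH grey, 20E red, JHA blue), with lines at the group means. In fat body the 20E libraries lie above the solvent libraries for both genes (means of 4148 against 768 CPM and of 207 against 26.8 CPM), and in brain they lie below.

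The fat body JHA libraries took no part in the choice, but they are compared here with EtOH and 20E libraries that did. Between JHA and EtOH, 0 of the 80 genes were called by edgeR, where 1.12% of all were, and 2 of 80 by limma voom (1.89% of all). DESeq2 called 6 of the 118 it fitted (5.08%, against 3.65% of all it fitted and 5.75% of those given an adjusted p). An unadjusted p under 0.05 was held by 14 of the 80, and by 1617 of all 9870 genes tested. The median log2 fold change was −0.04, beside −0.02 for all genes. Every JHA library was above every EtOH library for 13 of 80 genes (16.2%, against 12.3% of all genes) and below for 7 (8.75% against 7.21%), shares near the background.

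By size of p, the fat body genes nearest to a call between JHA and EtOH were 2 that were higher with JHA and 2 that were lower, none of which passed. HSALG001307.1 had the values above, a log2 fold change of 1.63 (SE 0.36, adjusted p = 0.0649, 0.000137 to 0.203 over 12 alternative fits, edgeR's quasi-likelihood test). HSALG009950.2 had 749, 869 and 807 CPM with EtOH, 769, 720 and 592 with 20E and 2340, 1326 and 1503 with JHA, a log2 fold change of 0.98 (SE 0.26, edgeR adjusted p = 0.105, 0.00154 to 0.264 over the alternatives). All 3 of its JHA libraries lay above the other 6, and its level in fat body was above that in brain. HSALG004121.1 had 17.7, 21.1 and 20.2 CPM with EtOH and 5.15, 7.79 and 8.27 with JHA, a log2 fold change of −1.54 (SE 0.31, edgeR adjusted p = 0.0523, 0.000579 to 0.153 over the alternatives). HSALG011233.2 had 26.1, 28.7 and 28.9 CPM with EtOH and 15.7, 18.8 and 14.8 with JHA, a log2 fold change of −0.83 (SE 0.22, edgeR adjusted p = 0.1, 0.032 to 0.303 over the alternatives). For both of these the JHA libraries did not overlap the solvent libraries.

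Between JHA and 20E in fat body, 1 of the 80 genes was called, where 0.811% of all genes were. It was HSALG007109.2, lower with JHA by a log2 fold change of −3.46 (SE 0.45, edgeR adjusted p = 0.0155, called in 9 of 12 alternative fits), with the CPM values given above. It was lost in each fit without 1 of the JHA libraries. DESeq2 called 7 of the 118 it fitted (5.93%, against 3.25% of all it fitted and 4.98% of those given an adjusted p). Limma voom called 1 of 80 (1.05% of all). The median log2 fold change of the 80 was 0.17, beside −0.01 for all genes.

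The ovary libraries took no part in the choice, although they may share ants with the brain libraries that did, and 94 of the 121 genes had enough ovary counts to be tested there. Between 20E and EtOH, 0 of the 94 were called by edgeR, as were 0% of all 11418 genes. An unadjusted p under 0.05 was held by 7 of the 94, of which 6 were lower with 20E, and by 274 of all genes. The log2 fold change was below 0 for 65 of the 94 (69.1%, against 48.7% of all genes), with a median of −0.24 beside 0.01 for all genes. With no filter on low counts the median over 120 genes was −0.17. DESeq2 called 2 of the 120 it fitted (1.67%, against 0.188% of all it fitted and 0.222% of those given an adjusted p). Limma voom with library weights called 9 of 94, all lower, where it called 2.22% of all genes lower.

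By the libraries themselves, every ovary 20E library was below every ovary EtOH library for 16 of the 94 genes (17%, against 3.98% of all genes), and above for 2 (2.13% against 5.68%). The ratio of these 16 in ovary ran from 1.13 to 5.78 with a median of 1.33, and it was at least 1.5 for 7. For 9 of the 16 every JHA library also lay above every 20E library, and for 10 the JHA libraries overlapped the EtOH libraries. On TMM library sizes the count was 19 of 94 (20.2%, against 5.51% of all genes). Without ovary 20E replicate 3 it was 45, where 20.4% of all genes did not overlap in this direction, and without EtOH replicate 2 it was 25, where 6.94% did.

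**Figure D5:**
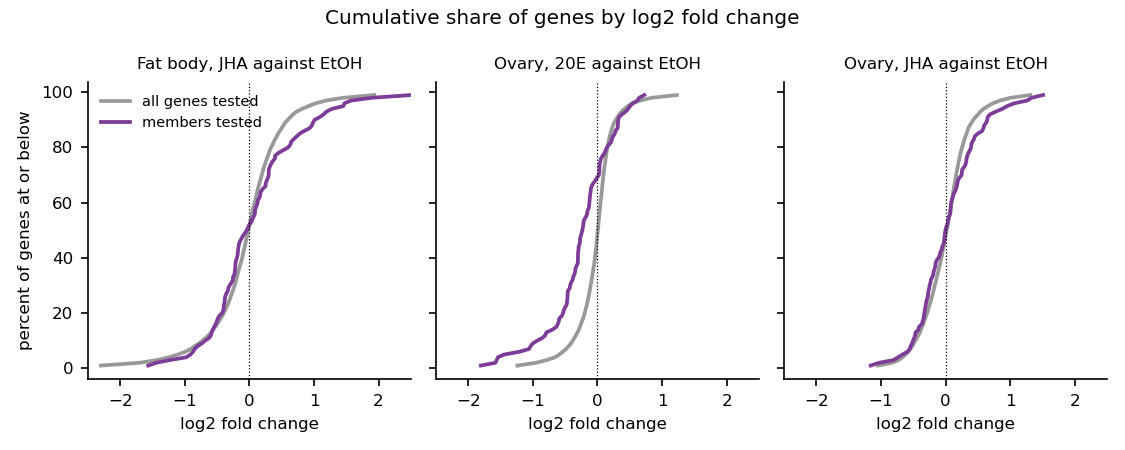
Cumulative percent of genes (vertical) at or below each log2 fold change (horizontal) in the edgeR fits, for the 121 genes as far as tested (purple, 80 in fat body and 94 in ovary) and all genes tested (grey). In ovary with 20E the purple line lies to the left (medians of −0.24 and 0.01), while for JHA the medians lie together in fat body (−0.04 and −0.02) and in ovary (−0.00 and 0.02). Without ovary JHA replicate 1 and 20E replicate 3 (a fit not drawn), the ovary JHA medians were −0.13 and 0.00.

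The brain conditions of the choice, applied to the ovary libraries, were met by 5 of the 94 genes (5.32%, against 0.385% of all genes tested in ovary). These 5 were named after their values were seen. HSALG004093.1 had 4.74, 3.14 and 8.43 CPM with EtOH, 0.519, 0.194 and 0.871 with 20E and 14.9, 4.20 and 3.80 with JHA. HSALG006869.1 had 41.9, 37.4 and 65.6 CPM with EtOH, 16.2, 12.7 and 22.6 with 20E and 130, 25.9 and 47.8 with JHA. HSALG027835.1 had 12.5, 8.51 and 14.5 CPM with EtOH, 5.94, 2.07 and 4.28 with 20E and 70.5, 10.9 and 12.8 with JHA. In these 3, as in HSALG014136.2, the highest ovary value was in JHA replicate 1, 1 of the 2 ovary libraries that stood apart. HSALG010787.2 had 55.1, 81.0 and 73.3 CPM with EtOH, 41.6, 26.7 and 35.8 with 20E and 64.0, 49.5 and 62.8 with JHA, with no library far from its group. HSALG014136.2 had 3.59, 2.15 and 2.21 CPM with EtOH, 1.84, 0.843 and 1.98 with 20E and 17.6, 3.79 and 2.77 with JHA.

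None of these 5 passed the edgeR test in ovary. HSALG010787.2 had a log2 fold change of −1.05 (SE 0.21, edgeR adjusted p = 0.548, 0.0146 to 1 over 13 alternative fits), and HSALG004093.1 of −3.41 (SE 0.72, edgeR adjusted p = 0.625, 0.000711 to 1 over the alternatives). These 2 had the smallest p of the genes lower with 20E. HSALG006869.1 had −1.54 (SE 0.51, edgeR adjusted p = 1), in ovary as in brain a ratio above 2.6 by CPM: 2.76 in ovary and 2.65 in brain. Among genes higher with 20E the smallest p were those of HSALG001307.1, with 37.1, 43.9 and 44.0 CPM with EtOH and 51.6, 64.7 and 122 with 20E (log2 fold change 0.88, SE 0.33, edgeR adjusted p = 1), and HSALG001835.1, with 2.64, 2.38 and 2.60 CPM with EtOH and 4.78, 3.70 and 4.36 with 20E (0.71, SE 0.34, edgeR adjusted p = 1). Neither overlapped between the groups, and both were lower with 20E in brain.

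The 2 ovary libraries that stood apart bear on these counts. Without JHA replicate 1 and 20E replicate 3, 9 of 95 genes were called lower with 20E by edgeR, where 2.25% of all genes were, and the median log2 fold change was −0.36. Of these 9, 7 were also among the 9 that limma voom called (77.8% of each list). The 124 ovary-enriched genes took 2.49% of the counts in 20E replicate 3 and 2.05% in JHA replicate 1, 4.78 and 4.86% in the other 20E libraries, 3.87 to 4.12% with EtOH and 4.46 and 4.51% in the other JHA libraries. The fat-body-enriched genes also number 121, but none of them is among the genes described here. They took 0.401% in 20E replicate 3, 0.442% in JHA replicate 1 and 0.365% in JHA replicate 3, and 0.183 to 0.218% in the other 6 ovary libraries. The part of the tissue make-up of a library in the ovary values was not tested.

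The difference of the 20E effect between brain and ovary passed in edgeR's test for 0 of the 121 genes, where 0.0224% of 13367 passed. That count was 0 too with DESeq2's size factors. Of the 121, 25 had an unadjusted p under 0.05, as did 507 of all 13367. The smallest p were those of HSALG003834.2, with a brain minus ovary difference of −1.55 on the log2 scale (SE 0.41), and HSALG007490.1, with −1.40 (SE 0.37). HSALG003834.2 had 234, 225 and 228 CPM with EtOH and 112, 57.9 and 91.6 with 20E in brain, and 2.10, 2.15 and 3.31 with EtOH and 2.71, 3.63 and 2.06 with 20E in ovary. Its brain groups are far apart and its ovary groups overlap at a low level. The brain contrast within this difference chose the genes.

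JHA gave no called gene in ovary. Between JHA and EtOH, 0 of 94 were called by edgeR (0% of all genes) and by limma voom (0% of all). DESeq2 called 0 of the 120 it fitted (0.043% of the genes it gave an adjusted p). Of the 94, 5 had an unadjusted p under 0.05, as did 401 of all 11418. The median log2 fold change was −0.00 beside 0.02 for all genes. It was 0.01 by DESeq2, and −0.13 to 0.07 without 1 library. By limma voom it was −0.16, with 61.7% of the genes tested below 0, against 49.3% of all. Without the 2 libraries that stood apart it was −0.13, with 64.2% below 0 against 49.4% of all. Every JHA library was above every EtOH library for 4 genes (4.26% against 11.2% of all genes) and below for 7 (7.45% against 5.55%). The smallest p were those of HSALG001698.2, with 60.6, 59.2 and 58.5 CPM with EtOH and 87.2, 72.1 and 69.3 with JHA (log2 fold change 0.29, SE 0.11), HSALG014136.2 (1.50, SE 0.67), HSALG007968.2 (−0.47, SE 0.17) and HSALG028970.1 (−0.53, SE 0.20), each with an edgeR adjusted p of 0.825. HSALG007968.2 was a gene of higher level in ovary than in brain, with 401, 472 and 460 CPM with EtOH, 297, 256 and 331 with 20E and 286, 338 and 373 with JHA in ovary. Its 20E and JHA libraries were all below its solvent libraries there.

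Between JHA and 20E in ovary, 0 of 94 were called by edgeR (0% of all genes) and by limma voom (0.035%). DESeq2 called 5 of the 120 it fitted (4.17%, against 0.338% of all it fitted and 0.476% of those given an adjusted p). Of the 94, 13 had an unadjusted p under 0.05, as did 481 of all 11418. The median log2 fold change was 0.04 beside 0.00 for all genes, 0.09 to 0.19 in the fits that leave out 1 library and 0.17 without the 2 libraries that stood apart. Every JHA library was above every 20E library for 10 genes (10.6% against 3.55% of all genes) and below for 1 (1.06% against 2.71%). HSALG004093.1 (log2 fold change 3.80, SE 0.73, edgeR adjusted p = 0.371) and HSALG001698.2 (0.52, SE 0.11, adjusted p = 0.432) had the smallest p of the genes higher with JHA. Of those lower with JHA, HSALG004638.2 (−0.91, SE 0.31) and HSALG006011.2 (−0.62, SE 0.30) had the smallest p, both with an edgeR adjusted p of 0.969. The comparisons of JHA share solvent or 20E libraries with the comparison of 20E and EtOH in the same tissue.

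At the limits of the choice, the last gene inside by brain ratio was HSALG004846.1 at 1.503, with a mean of 3.77 CPM with EtOH and 2.34 with 20E, and the first outside was HSALG000355.2 at 1.49, with 223 and 149 CPM. By fat body ratio, HSALG029132.1 lay just outside at 1.517, with 66.6 CPM with EtOH and 43.8 with 20E in fat body and a brain ratio of 1.8. It differed little there from HSALG006513.2, just inside at 1.50.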

How the data were processed

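The deposited table holds raw read counts per gene identifier, whole numbers. The submitters' processing notes name Trimmomatic, STAR 2.5.3a and HTSeq as the tools the authors used. The sources used here give neither genome build nor annotation nor strand setting, so reads of overlapping, antisense or near-identical genes may be mixed. The 5 HTSeq summary lines were left out: reads outside genes took 26.2 to 54.2% of a library's total.

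CPM was a gene's count over the summed gene counts of its library, on the usual scale. The genes and lists were chosen with earlier results of these data known. The test was edgeR's quasi-likelihood test (version 4.0.16, R 4.3.3, TMM, filterByExpr, robust glmQLFit, glmQLFTest, Benjamini-Hochberg adjusted over all genes tested), with 1 fit per tissue over its 9 libraries and 1 over all 27 libraries for differences between tissues, which treats tissues of an ant as independent. Each standard error (SE) was derived from the test's F value. DESeq2 1.42.0 and limma 3.58.1 were alternatives. The scripts were tested on simulated counts. The p-values measure the spread between the individuals' libraries. Up to 2 genes per direction and comparison are named, by ratio, level or p, in brain by each. Cell type marker lists could not be applied, since no identifier has a name.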

Additional observations from a re-analysis of the deposited data

Results flagged for a closer look

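In the fit over 27 libraries, the 20E effect in brain minus that in fat body was −3.04 on the log2 scale (SE 0.48) for HSALG001307.1 and −3.67 (SE 0.68) for HSALG007109.2, the 2 of the 121 genes that passed an adjusted p under 0.05 there. The brain and fat body values that enter the difference are those that chose the genes, so it is given as a description and not as an independent test. Most of each difference came from the fat body, where the log2 fold changes were 2.36 and 2.86. In brain they were −0.68 and −0.82, and neither gene was called there by edgeR. Groups of 3 libraries are too small for a check of single libraries that lie far from their group.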

How the results depend on the processing

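In brain, the number of the 121 genes called lower with 20E than with EtOH was 31. It was 79 by DESeq2, which called 1.05% of the 18460 genes it fitted lower, and 104 by limma voom, which called 6.33% of 12379 lower. It was 10 in a fit of the 2 groups alone and 0 to 52 when 1 library was left out. Against JHA it was 33, and 2 to 59 without 1 library. DESeq2 called 68 there (1.06% of all genes it fitted) and limma voom 101 (6.64% of all). In fat body, the 2 genes called between 20E and EtOH became 1 with the 2 groups alone and 0 to 2 without 1 library. Between JHA and EtOH the count of 0 became 6 by DESeq2, which called 3.65% of all genes it fitted, and 2 by limma voom, which called 1.89% of all. It became 1 with no filter or with the 2 groups alone. The median of −0.04 became −0.14 by DESeq2, −0.16 with no filter and −0.17 to 0.03 without 1 library. Between JHA and 20E, 1 called gene became 7 by DESeq2, which called 3.25% of all genes it fitted. It became 0 to 3 without 1 library, where the median ran from 0.02 to 0.36. In ovary with 20E, the count of 0 became 2 by DESeq2, which called 0.188% of all genes it fitted. It became 9 by limma voom, which called 2.22% of all genes lower. Without the 2 libraries that stood apart (a choice made after the data were seen) it was 9, where 2.25% of all genes were called lower. The median was −0.36 there, and without 1 library it ran from −0.34 to −0.16. The ovary JHA median was −0.16 by limma voom and −0.13 without the 2 libraries that stood apart. Between JHA and 20E in ovary DESeq2 called 5, where it called 0.338% of all genes it fitted. The differences of the 20E effect passed for 1 to 3 genes (brain and fat body) and 0 to 1 (brain and ovary) without 1 library. Genes lower with 20E in ovary without overlap numbered 16 to 45 without 1 library. The 16 came without EtOH replicate 3, where 6.01% of all genes were lower in this way. The 45 came without 20E replicate 3, where 20.4% of all genes were. On TMM library sizes the choice itself gave 104 genes, 99 of them among the 121. With CPM as used, it gave 37 genes at a ratio of at least 2 and 71 at a fat body level of at least 1 CPM. Without 1 library it gave 105 to 200, 200 being the most it allows. That number was reached without brain 20E replicate 1, when 90 of the 121 were among them. Leaving out both brain libraries that stood apart gave 160 genes, 78 of them among the 121. The cause of these changes was not tested, beyond the smaller number of libraries in the fits that leave some out. No share of all genes is given for the edgeR fits without 1 library, with no filter, with 2 groups alone or with a replicate block (below). Their counts cannot be read as particular to these genes.

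The labels do not say what a replicate number shares. Within a tissue, where different treatments mean different ants, the deviations of same-numbered libraries correlated at −0.45 to 0.45, so the fits per tissue have no block. Across the tissues of 1 treatment, a check added after the data were seen, the correlation ran from −0.01 to 0.38 and was over 0.1 in 21 of 27 pairs, and in 24 of 27 a library correlated best with its own number. This is a hint from the data, not the design, that equal numbers share an ant. With a replicate block the brain counts were 3 for 20E against EtOH and 11 for JHA against 20E, and the fat body count for 20E against EtOH was 0; with 1 term per treatment and number, the differences of the 20E effect passed for 2 genes (brain and fat body) and 0 (brain and ovary). Over all alternatives for the named genes, 377 values kept their side of the threshold, 28 lost a call and 29 gained one. Counts limit what can be seen for 41 of the genes in fat body and 27 in ovary.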

Other observations

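Among the 121 genes, 22 (18.2%) had another of them at an identifier number 1 away, in 11 pairs. With the direction of the choice reversed (20E higher in brain), 62 of 230 genes (27%) did. A longer list holds more consecutive numbers, so these 2 shares cannot be compared, and no share for lists of equal length was computed. Across the 27 libraries, the Pearson correlation of log2 CPM of such pairs ran from 0.25 for HSALG000241.2 and HSALG000242.2 to 0.997 for HSALG022460.1 and HSALG022461.1, and was 0.944 for HSALG013509.2 and HSALG013510.2. The points share their tissues and libraries, and whether consecutive numbers are neighbours in the genome is not known here. HSALG022460.1 and HSALG022461.1 had solvent brain means of 68.0 and 73.0 CPM and brain ratios of 1.66 and 1.60.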
